A study of Rattus norvegicus with 8 samples.

Results

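Genes of the mitochondrial respiratory chain were examined in the colon of rats given 4 diets. They were defined by name, as every gene whose rat symbol begins with Ndufa, Ndufb, Ndufc, Ndufs, Ndufv, Sdh, Uqcr, Cox4, Cox5, Cox6, Cox7, Cox8 or Atp5. The rule was chosen with earlier results of these data known. Of the 26913 genes on the array, 84 met this rule, and 83 of them were among the 19901 genes tested. The gene left out was Cox8c, a tissue-restricted complex IV isoform, whose probe was well above background in 0 rats. The rats were female Wistar rats, 6 weeks old, and a piece of the middle colon was taken from each. The REF group received the reference diet, the C10 group a diet with cocoa, the CF group a diet with cocoa fiber, and the I group a diet with inulin, with 4 rats in each group. Each of 8 two-colour Agilent arrays took the RNA of a pair of rats, and by the sample codes in the labels every rat was measured once, in Cy5 or in Cy3, and between 68.6 % and 83.9 % of the spots of a rat were well above background. The comparisons ask whether cocoa, its fiber or inulin changed the expression of these genes in the colon, and whether the 5 complexes of the chain behaved alike.

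The respiratory chain lies in the inner mitochondrial membrane. Complex I takes electrons from NADH and complex II from succinate, complex III passes them from ubiquinol to cytochrome c, and complex IV hands them to oxygen. Complexes I, III and IV pump protons out of the matrix, and complex V, the ATP synthase, makes ATP as the protons return. In the colon the epithelial cells rely on this chain to oxidise butyrate, the fatty acid that bacteria release from fermented fiber, and smooth muscle contains it as well. A few subunits of complexes I, III, IV and V are encoded by mitochondrial DNA. The array carried no probe that could be matched to any of these 13 genes, so the values below concern nuclear genes only.

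Grouped by their symbols, 31 of the 83 genes fell to complex I, 4 to complex II and 8 to complex III. Complex IV took 16 and complex V 15. A further 8 were assembly factors of complexes I and II. Ndufa4, which was named as a subunit of complex I and is now placed in complex IV, was kept apart. The complex IV group contains 1 transcribed pseudogene, Cox6c-ps1, and Cox7a2l, which its symbol alone places there. All genes but Cox8b were well above background in all 16 rats. Cox8b, a muscle isoform of complex IV, was so in 7 rats, of which 1 was a REF, 3 were C10, 1 was a CF and 2 were I rats, and its signal of 6.14 to 6.37 lay near the lowest that the arrays measured. Values are normalized log2 signals, and changes are log2 fold changes with their standard error (SE) from a linear model with diet and dye as terms and the array as a block. Called genes are those with a p below 0.05 after adjustment over the 19901 genes tested. Precision was limited by the number of arrays.

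The tissue was checked against its markers. Of 14 epithelial markers of the colon, 12 were tested, among them Aqp8 and Cdh1, and smooth muscle markers were present in all rats, as they should be in a full piece of colon wall. C10 rat 1 stood apart. Its score for 9 smooth muscle genes, the mean log2 signal centred on all 16 rats, was −2.14, compared with 0.10 to 0.21 in the other C10 rats and 0.02 to 0.51 in the REF rats. Actg2, the smooth muscle actin with the lowest p of that list in C10 compared to REF, had an estimate of −1.17 (SE 0.42, adjusted p 0.176). Scores of B-cell and T-cell markers varied widely among rats of the same diet. In the REF group the B-cell score was −0.29, −1.15, 1.43 and −1.03 in rats 1 to 4, and in the C10 group 1.67, −1.28, 0.63 and −0.96, each close to that of the rat on the same array except on array 1. The colon epithelium score also varied within diets. In rats 1 to 4 it was 0.25, 0.03, −0.54 and 0.20 in REF and 0.04, 0.49, 0.17 and −0.51 in C10. It was −0.02, 0.38, −0.53 and −0.15 in CF and −0.46, 0.37, −0.04 and 0.32 in I. A lower level of a transcript in a piece of tissue can reflect fewer cells of a type or less RNA per cell, and these cannot be told apart here. The part that epithelium, muscle or lymphoid tissue had in the results below was not tested. The median estimate of the respiratory chain genes in C10 compared to REF was −0.10 with all rats, −0.09 without C10 rat 1, −0.05 without C10 rat 2 and −0.06 without REF rat 2, so that single rats moved it. All C10 rats lay on 4 of the 8 arrays and all I rats on the other 4, while 2 REF and 2 CF rats were on each of these sets. The median was −0.11 with the set of arrays as a term, and −0.11 within the arrays that held C10 rats.

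Compared to REF, cocoa gave 0 called genes among the 83, whereas 187 of all genes tested, or 0.94 %, passed the same threshold with limma. At an unadjusted p below 0.05, 17 of the 83 were lower in C10 and 1 was higher, compared with 8.3 % and 8.82 % of all genes. The count of 17 rested in part on single rats, as it was 7 without REF rat 2, 7 without C10 rat 2, 11 without C10 rat 1 or REF rat 1, and 25 without C10 rat 4. It also moved with the settings, between 4 (no array block) and 24 (the set of arrays as a term). Rank product, a test on the ranks of changes between pairs of rats, takes no account of the array or the dye. It called 1 member, Cox6a2, as lower, against a background of 1.48 %. Of the 83 estimates, 63 were below 0, that is 75.9 %, compared with 46.1 % of all genes, and their median was −0.10, compared with 0.01. All 4 C10 rats lay below all 4 REF rats for 2 members, Atp5po and Ndufv1, and above them for 0 members, while this held for 2.01 % and 2.62 % of all genes.

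For cocoa fiber, limma called 0 members compared to REF, as it called 0 of all genes (0 %). At an unadjusted p below 0.05, 9 members were lower and 0 higher, compared with 3.29 % and 3.05 % of all genes, and rank product called 0 members (background 0.668 %). The count of 9 was between 2 (without REF rat 2) and 14 (without REF rat 4) when a rat was left out, and over the other settings between 0 (such as no array block) and 16 (such as quantile normalization). The median estimate was −0.08, compared with 0.01 over all genes. Of the 83 estimates, 68 were below 0, compared with 45.6 % of all genes. In every CF rat 1 member, Atp5mg, was lower than in every REF rat, and 0 members were higher in this way, for which the shares of all genes were 0.794 % and 1.11 %. Atp5mg, the g subunit of the membrane part of complex V, is named because it was the single such gene, a choice made after its values were seen. Its estimate in CF was −0.26 (SE 0.11, adjusted p 0.781), and that of its other probe −0.13 (SE 0.11). In C10 and I compared to REF its estimates were −0.22 (SE 0.10) and −0.11 (SE 0.10). Those of the other probe were −0.16 (SE 0.11) and −0.08 (SE 0.11). Inulin also gave 0 called members with limma (0 % of all genes), with 5 lower and 0 higher at an unadjusted p below 0.05 (2.86 % and 2.8 % of all genes) and 0 by rank product (background 0.352 %). The count of 5 was between 2 (without I rat 3) and 9 (without REF rat 4) when a rat was left out. The median estimate for inulin was −0.06, compared with 0.0044 over all genes. Of the 83 estimates, 65 were below 0, compared with 48.2 % of all genes. No member separated all I rats from all REF rats in either direction, compared with 0.985 % of all genes lower and 1.04 % higher. These 3 comparisons share the same 4 REF rats, so that an unusual REF rat would move all of them.

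The diets were also compared with each other. In C10 compared to CF, limma called 0 members (0.407 % of all genes), and 3 were higher and 3 lower at an unadjusted p below 0.05, compared with 6.26 % and 7.24 % of all genes. In C10 compared to I, 0 members were called (0.543 % of all genes), with 1 higher and 4 lower at an unadjusted p below 0.05 (6.47 % and 5.77 %). In CF compared to I, 0 members were called (0 %), and 0 were higher and 0 lower at an unadjusted p below 0.05 (1.7 % and 1.14 %). The median estimates of the members in these 3 comparisons were −0.01, −0.02 and −0.01. Rank product was run against REF only. C10 and I rats lay on different arrays, so that a difference between them and one between these sets of arrays cannot be told apart except through REF and CF rats.

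The 4 REF rats had scores of 0.07, 0.07, −0.02 and 0.07 over the 83 genes (rats 1 to 4). The C10 rats had −0.02, −0.13, −0.0078 and 0.08, the CF rats −0.0028, 0.05, −0.09 and −0.0090, and the I rats −0.04, 0.02, −0.06 and 0.03. REF rats 1, 2 and 4 were close together and above most others, REF rat 3 was lower, C10 rat 4 was the highest of all rats and C10 rat 2 the lowest, and the diets overlapped. On each of the 4 arrays that held a REF rat, the REF rat had the higher score of the pair, over all 83 genes and for complex V alike, next to C10 rats 1 and 2 and I rats 3 and 4. The mean was 0.05 ± 0.05 (SD, n = 4) in REF, −0.02 ± 0.09 in C10, −0.01 ± 0.06 in CF and −0.01 ± 0.04 in I.

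**Figure D1:**
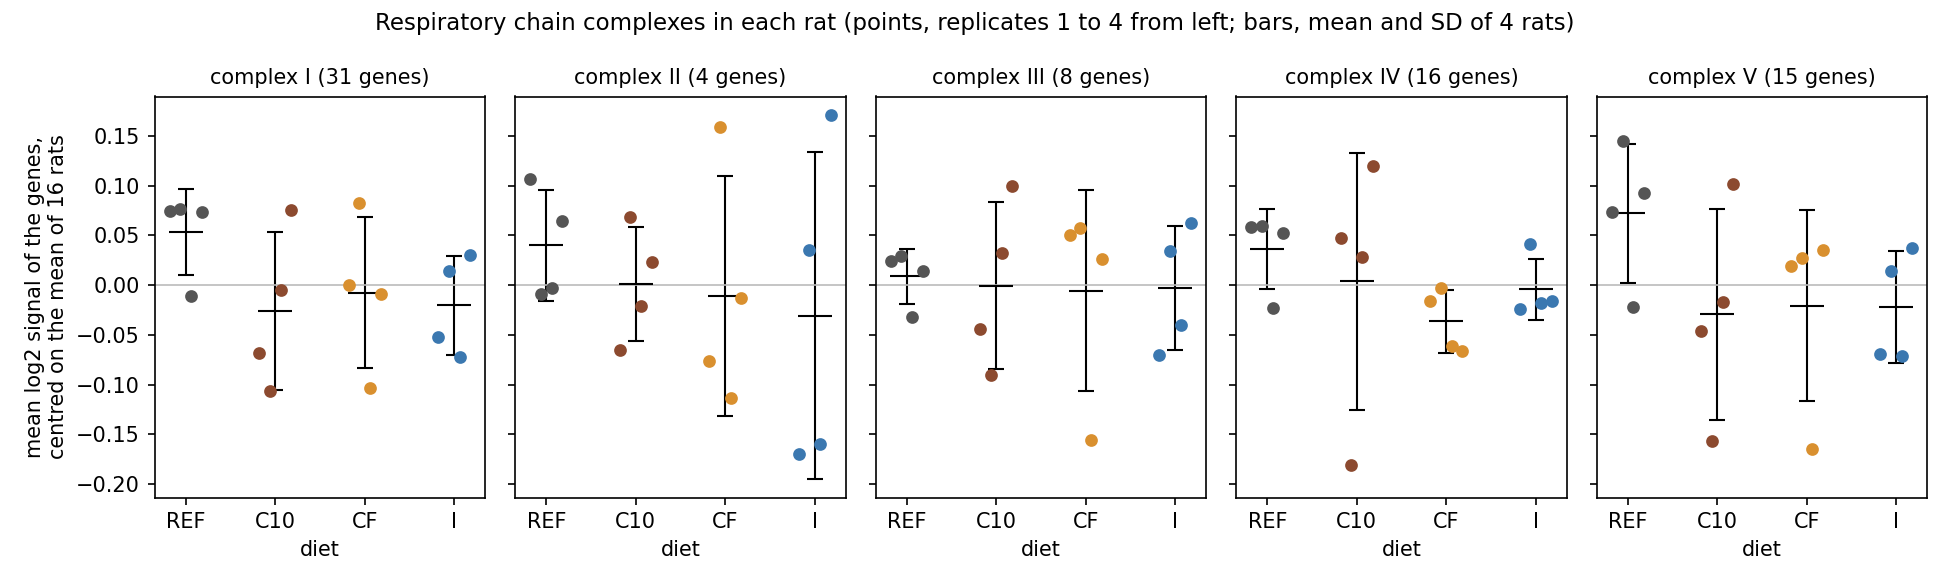
Score of each complex in each rat, the mean log2 signal of its genes centred on the mean of 16 rats (vertical axis), by diet (horizontal axis); points are rats and bars the mean and SD of 4 rats. In complex V, REF rats lie between −0.02 and 0.15 and C10 rats between −0.16 and 0.10, and in every complex the diets overlap.

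The complexes were not alike in their medians in C10 compared to REF, although no test of a difference between them was made. Complex V had the lowest median, −0.15, with 13 of 15 estimates below 0 (46.1 % of all genes), followed by complex I with −0.11 and 28 of 31. Without C10 rat 2 both medians were −0.09, so the lead of complex V rested on this rat. Complex II had a median of −0.04 (3 of 4 below 0), complex III of −0.01 (5 of 8) and complex IV of −0.01 (8 of 16), and over all settings tried the medians of complexes III and IV in C10 lay on both sides of 0, while those of complexes I, II and V stayed below it. In CF compared to REF the medians were −0.12 for complex V, −0.10 for complex I, −0.10 for complex IV, −0.04 for complex II and −0.04 for complex III. Without CF rat 3, that of complex V was −0.05 and no longer the lowest. In I compared to REF they were −0.09, −0.08, −0.05, −0.04 and −0.0095 in the same order. Complex IV had the median farthest from 0 of the complexes in C10 compared to CF, 0.11. Of its 16 estimates, 4 were below 0, compared with 48.7 % of all genes, and 12 were above 0. Of these, 2, Cox6b1 and Cox6a1, had an unadjusted p below 0.05 (6.26 % of all genes were higher) and 0 were called by limma. When a rat was left out, the median of complex IV was −0.06 to 0.04 in C10 and −0.14 to −0.07 in CF, each compared to REF. The SD of the score among rats of a diet was 0.06 for complex I, 0.11 for complex II, 0.07 for complexes III and IV and 0.08 for complex V.

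**Figure D2:**
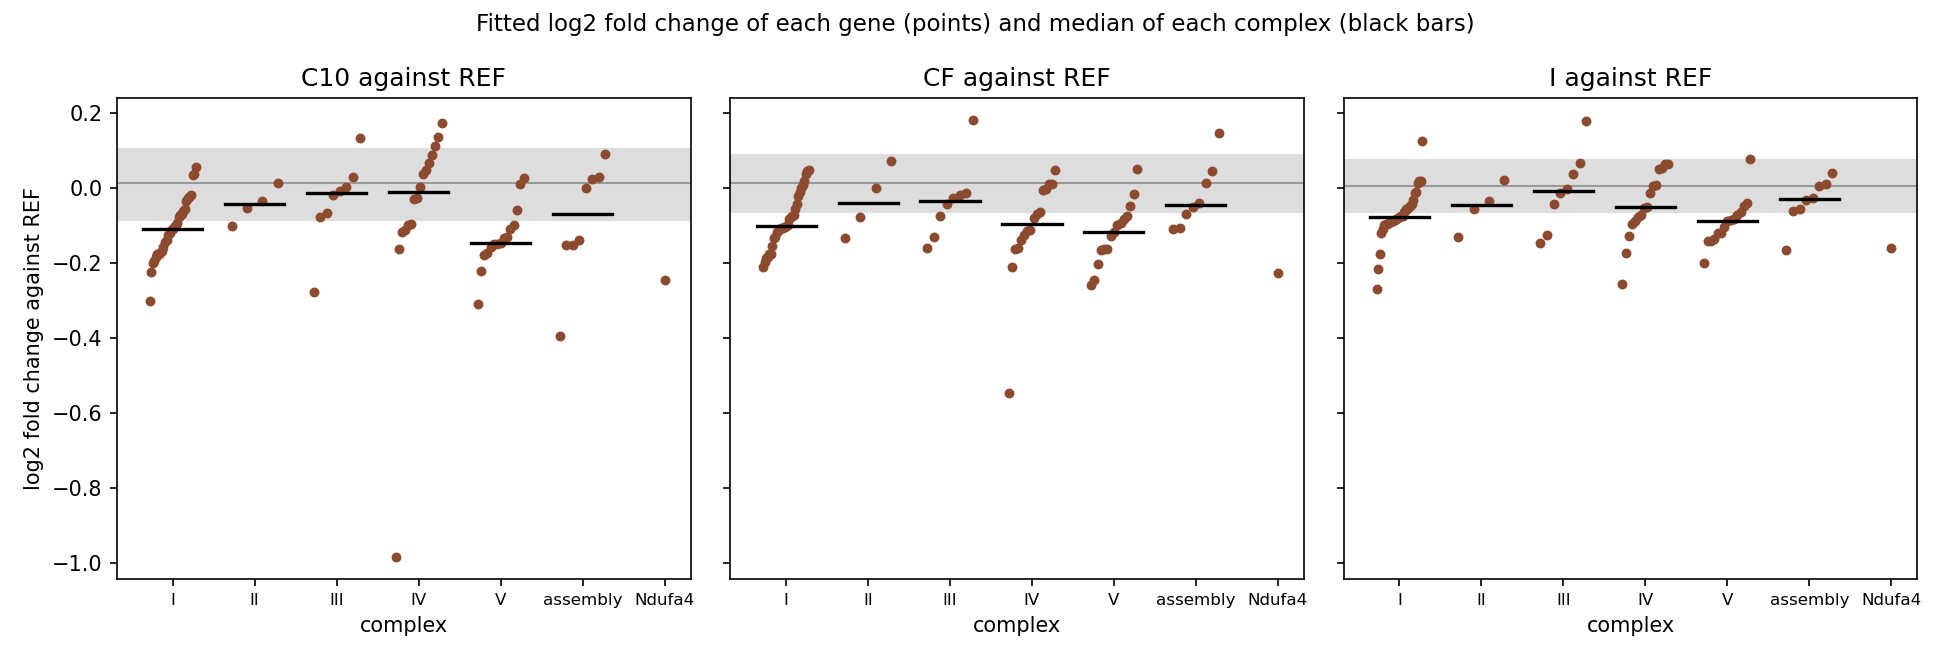
Fitted log2 fold change against REF of each of the 83 genes (vertical axis, points) by complex (horizontal axis) for C10, CF and I; black bars are medians, and the grey line and band are the median and the middle 50 % of all genes tested. The medians of complexes I and V lie below 0 in the 3 comparisons, at −0.11 and −0.15 in C10, and Cox6a2 at −0.98 is the lowest point in C10.

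Complex I is built on a core that is shared with bacteria, in which Ndufv1 and Ndufv2 take up the electrons of NADH and other subunits, among them Ndufs1, Ndufs3, Ndufs7 and Ndufs8, help to pass them on to ubiquinone. In C10 compared to REF, Ndufv2 had an estimate of −0.22 (SE 0.08, adjusted p 0.183). Ndufs3 and Ndufs8 had estimates of −0.18 (SE 0.07) and −0.19 (SE 0.08), with adjusted p of 0.239 and 0.233. Those of Ndufs1 and Ndufs7 were nearer to 0, at −0.10 (SE 0.10) and −0.07 (SE 0.09). Signals of Ndufv1 were 13.99, 13.91, 13.97 and 13.95 in REF rats 1 to 4 and 13.76, 13.91, 13.89 and 13.89 in C10 rats 1 to 4. The groups did not overlap, but C10 rat 2 and REF rat 2 were both near 13.91, and C10 rat 1 was far below the others. The estimate was −0.11 (SE 0.06, adjusted p 0.328, exact permutation p 0.0286, the smallest that 4 rats against 4 can give). The exact permutation test takes no account of the array or the dye. CF rats ranged from 13.86 to 14.15 and I rats from 13.85 to 14.11, both across the REF values.

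The other subunits of complex I surround this core. Ndufb8, a subunit of the membrane arm that is often used as a marker of assembled complex I, had the lowest estimate of the complex in C10. Its signals were 15.41, 15.17, 15.57 and 15.32 in REF rats 1 to 4 and 14.91, 15.05, 15.29 and 15.10 in C10 rats 1 to 4. C10 rat 3 lay within the REF range and the other 3 C10 rats below it, so the groups overlapped. The estimate was −0.30 (SE 0.08), and the adjusted p of 0.0855 did not pass, with an exact permutation p of 0.0571. In I rats the signals were 14.98, 15.27, 15.22 and 15.03, an estimate of −0.27 (SE 0.08, adjusted p 0.796), and in CF rats 15.37, 15.24, 15.07 and 15.27, an estimate of −0.18 (SE 0.09, adjusted p 0.798). I rats 1 and 4 lay below all REF rats, and CF rat 3 did.

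Ndufb5, another membrane-arm subunit, was among the 2 lowest p-values of members in both fiber diets. Signals were 13.78, 13.48, 13.60 and 13.58 in REF, 13.29, 13.71, 13.53 and 13.39 in CF, and 13.35, 13.52, 13.23 and 13.57 in I rats 1 to 4. In each of the 2 fiber diets a pair of rats lay below all REF rats and the others within the REF range. The estimates were −0.19 (SE 0.07, adjusted p 0.765) for CF and −0.22 (SE 0.07, adjusted p 0.796) for I, and −0.20 (SE 0.07, adjusted p 0.154) for C10. At the other end of complex I, Ndufa1 had the highest estimate in C10, 0.05 (SE 0.07), and Ndufa10 the highest in I, 0.12 (SE 0.09, adjusted p 0.931), but −0.11 (SE 0.09) in C10.

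Complex II is the succinate dehydrogenase of the citric acid cycle, in which Sdha binds the flavin, Sdhb carries the iron-sulfur clusters and Sdhc and Sdhd anchor them in the membrane. The estimates for its 4 genes were small. In C10 compared to REF, Sdha had an estimate of 0.01 (SE 0.10), Sdhb of −0.05 (SE 0.07), Sdhc of −0.03 (SE 0.06) and Sdhd of −0.10 (SE 0.07), and the lowest adjusted p of the 4 was 0.498. Sdhd also had the lowest estimate of the 4 in I compared to REF, −0.13 (SE 0.07, adjusted p 0.901). In 0 of the 6 comparisons did a gene of complex II have an unadjusted p below 0.05 with limma.

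Complex III passes electrons through the Rieske iron-sulfur protein Uqcrfs1 to cytochrome c, and Uqcrc1 and Uqcrc2 are its large core proteins on the matrix side. Signals of Uqcrc2 were 13.47, 13.30, 13.18 and 13.36 in REF rats 1 to 4 and 12.90, 13.09, 13.25 and 13.09 in C10 rats 1 to 4. C10 rat 3 was above REF rat 3 and the other C10 rats were below all REF rats. The estimate was −0.28 (SE 0.09, adjusted p 0.147, exact permutation p 0.0571), whereas it was −0.03 (SE 0.10) in CF and −0.02 (SE 0.09) in I. Uqcrc1 and Uqcrfs1 had estimates of −0.0084 (SE 0.07) and −0.08 (SE 0.08) in C10, and the difference between Uqcrc1 and Uqcrc2 was not tested. Uqcrq, a small subunit near the ubiquinone site, had the highest estimate of the complex in C10, 0.13 (SE 0.11), and the lowest p of the members above 0 in CF, 0.18 (SE 0.12), and in I, 0.18 (SE 0.11), with adjusted p of 0.593, 0.874 and 0.929.

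Uqcrb, which also lies at that site, had the lowest p among members higher in C10 compared to CF. Its signals were 14.49, 14.69, 14.75 and 14.72 in C10 and 14.45, 14.64, 14.35 and 14.44 in CF rats 1 to 4. C10 rat 1 lay within the CF range, and the other C10 rats were above all CF rats. The estimate was 0.19 (SE 0.07, adjusted p 0.229), and compared to REF it was 0.03 (SE 0.07) for C10 and −0.16 (SE 0.07, adjusted p 0.781) for CF.

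Complex IV has subunits with a ubiquitous form and a form restricted to muscle, lung or testis. The ubiquitous forms Cox4i1, Cox6a1, Cox6b1, Cox7a2 and Cox8a had estimates from −0.16 (Cox8a, SE 0.08) to 0.04 (Cox6b1, SE 0.06) in C10 compared to REF and from −0.16 (Cox7a2, SE 0.07, adjusted p 0.781) to −0.0023 in CF. In C10 compared to CF, Cox6b1 had an estimate of 0.15 (SE 0.06, adjusted p 0.297). C10 rats 1 to 4 had Cox6b1 signals of 13.97, 14.06, 14.08 and 14.11, and CF rats 1, 3 and 4 of 13.95, 13.77 and 13.84. CF rat 2 lay between C10 rats 1 and 2, so the groups overlapped by this rat.

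The widest range was found in Cox6a2, the form of subunit VIa of heart and skeletal muscle. Its signals were 8.74, 9.02, 8.99 and 8.99 in REF, 8.78, 7.41, 8.18 and 7.53 in C10, 8.32, 8.71, 9.02 and 7.61 in CF, and 9.15, 8.58, 8.62 and 8.39 in I rats 1 to 4. C10 rats 2, 3 and 4 were below all REF rats, C10 rat 1 lay just above the lowest REF rat, and CF and I rats were spread from the low to the REF level or above it. The estimate in C10 was −0.98 (SE 0.29), and limma's adjusted p was 0.110 (exact permutation p 0.0571), whereas rank product called the gene. Without C10 rat 1, the estimate was −1.41 and the adjusted p 0.0252, so that the call turned on this rat, with adjusted p from 0.0252 to 0.456 over all settings tried. Of 15 markers of striated muscle, 11 were tested, 9 of which had estimates below 0 in C10 compared to REF. Limma called 0 of them, and 3 were lower and 0 higher at an unadjusted p below 0.05, with a median of −0.24. Of all genes, 0.94 % were called, 8.3 % lower and 8.82 % higher, and 46.1 % had estimates below 0. Their score was −0.52, −0.05, −0.14 and 0.0022 in C10 rats 1 to 4 and 0.14, 0.17, 0.12 and 0.0018 in the REF rats. C10 rat 1 had the lowest score, and the part of striated muscle in the values of Cox6a2 was not tested. Ckm, the muscle creatine kinase, had an estimate of −0.91 (SE 0.31, adjusted p 0.158), and Tnni2, a troponin of fast muscle, of −0.24 (SE 0.10, adjusted p 0.223).

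Of the 4 restricted forms tested, Cox6a2 included, 3 had estimates above 0 in C10 compared to REF. The difference between these and Cox6a2 was not tested. Cox6b2, a form of subunit VIb that is abundant in testis, was the single member higher in C10 at an unadjusted p below 0.05. Its signals were 11.31, 11.31, 11.55 and 11.26 in REF and 11.59, 11.50, 11.44 and 11.62 in C10 rats 1 to 4. REF rat 3 lay among the C10 rats, and the other REF rats were below all of them. The estimate was 0.17 (SE 0.07, adjusted p 0.200), and without REF rat 3 it was 0.23 with an adjusted p of 0.0468 (0.0468 to 0.480 over all settings). Cox4i2, the form of subunit IV that is prominent in lung, had an estimate of 0.13 (SE 0.09, adjusted p 0.473), with C10 rat 1 at 10.87 and the other C10 rats between 10.14 and 10.40. Cox8b had an estimate of 0.09 (SE 0.05), which says little as most rats were not well above background. Cox7a1 and Ndufa4l2 were not matched to a probe, and of 122 protein-coding symbols in the gene table that begin with the prefixes, 83 were found on the array.

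Ndufa4 is given apart because its place in the chain was revised. Signals were 13.65, 13.57, 13.52 and 13.46 in REF rats 1 to 4, 13.30, 13.18, 13.54 and 13.42 in C10, 13.29, 13.55, 13.52 and 13.27 in CF, and 13.52, 13.49, 13.30 and 13.35 in I. In every test diet 2 or more rats lay below all REF rats and at least 1 lay among them. The estimates were −0.25 (SE 0.08, adjusted p 0.132) in C10, −0.23 (SE 0.08, adjusted p 0.741) in CF, where it had the lowest p of all members, and −0.16 (SE 0.08, adjusted p 0.873) in I.

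Complex V consists of the catalytic F1 part, a ring of c subunits that turns with the proton flow, and a peripheral stalk that holds F1 still. The 4 stalk genes Atp5po, Atp5pb, Atp5pd and Atp5pf had a median of −0.16 in C10, −0.14 in CF and −0.10 in I, and the 4 estimates were below 0 in each. The 5 F1 genes had medians of −0.06, −0.05 and −0.09, and within F1, Atp5f1a and Atp5f1b, which form the catalytic hexamer, had estimates of −0.06 (SE 0.09) and 0.03 (SE 0.10) in C10. Atp5po, the subunit OSCP that joins the stalk to the top of F1, had the lowest p of all members. Its signals were 15.12, 14.91, 14.99 and 14.97 in REF and 14.69, 14.52, 14.87 and 14.83 in C10 rats 1 to 4. The highest C10 rat was below the lowest REF rat, with C10 rat 3 closest to REF rat 2 and C10 rat 2 farthest away.

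The estimate for Atp5po was −0.31 (SE 0.07), with an adjusted p of 0.0542 and an exact permutation p of 0.0286. It stood at the edge of the threshold. With another estimate of the correlation between rats of an array (0.476 in place of 0.42), an alternative chosen after seeing the data, its adjusted p was 0.0416 and it was the 1 member called. It also passed with quantile normalization (adjusted p 0.0444) and without REF rat 3 (adjusted p 0.0434), and the range over all settings was 0.0416 to 0.368. In CF, signals were 14.82, 15.04, 14.85 and 14.84, and in I 14.68, 14.94, 14.68 and 14.95. CF rat 2 and I rats 2 and 4 lay within the REF range and the others below it. The estimates were −0.16 (SE 0.08, adjusted p 0.787) in CF and −0.20 (SE 0.07, adjusted p 0.828) in I. Atp5if1, which inhibits the synthase when it would run in reverse, had estimates of −0.15 (SE 0.08), −0.13 (SE 0.09) and −0.08 (SE 0.08) in C10, CF and I, with adjusted p of 0.372 or more. Its REF rat 3 was high, at 14.60 against 14.20 to 14.25 in the other REF rats.

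**Figure D3:**
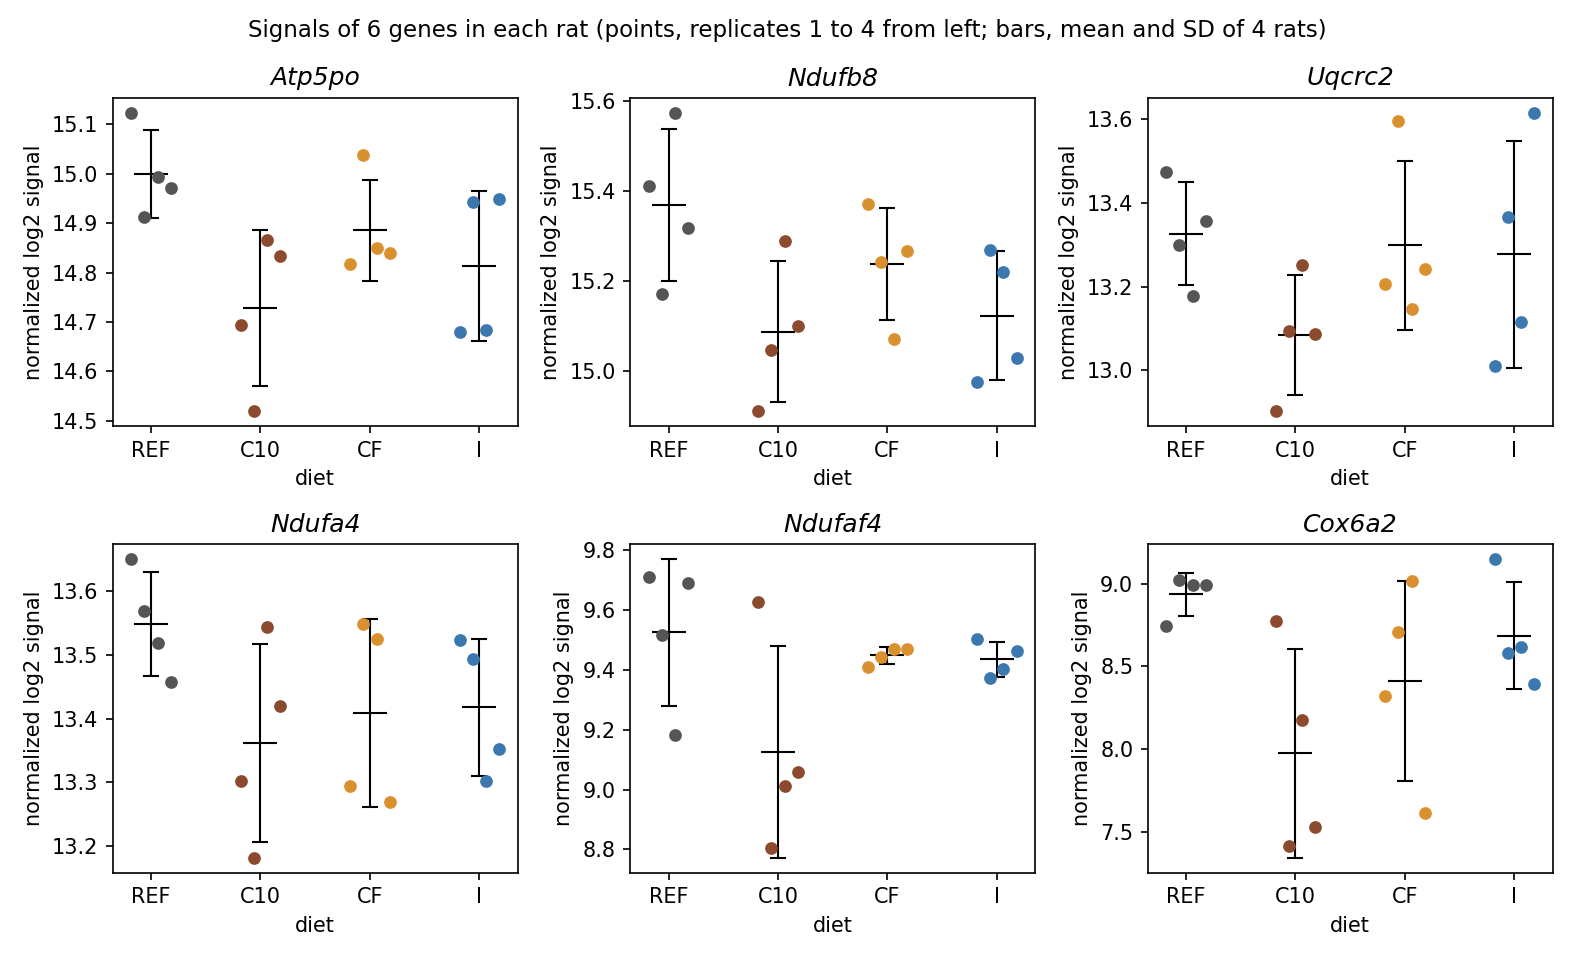
Normalized log2 signal (vertical axis) of 6 genes in each rat by diet (horizontal axis); points are rats and bars the mean and SD of 4 rats. Atp5po is the single plotted gene in which all C10 rats, at 14.52 to 14.87, lie below all REF rats, at 14.91 to 15.12, and Cox6a2 shows 3 C10 rats between 7.41 and 8.18 and 1 at 8.78.

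Assembly factors help to build the complexes and are not part of them. The 8 that the names take in had a median of −0.07 in C10 compared to REF. Of these, 2 were lower at an unadjusted p below 0.05 and 0 were called by limma, compared with 8.3 % and 0.94 % of all genes. Ndufaf4, a factor of complex I, had signals of 9.71, 9.52, 9.18 and 9.69 in REF, 9.63, 8.80, 9.01 and 9.06 in C10, 9.41, 9.44, 9.47 and 9.47 in CF, and 9.50, 9.37, 9.40 and 9.46 in I rats 1 to 4. C10 rats 2, 3 and 4 were below all rats of the other diets, while C10 rat 1 was among the high REF rats. The estimate was −0.40 (SE 0.11, adjusted p 0.0894) compared to REF and −0.36 (SE 0.11, adjusted p 0.173) compared to CF. Without C10 rat 1, these were −0.55 (adjusted p 0.0252) and −0.45 (adjusted p 0.0465), and both passed the threshold. Without REF rat 3 the first was −0.46 (adjusted p 0.0436). Over all settings the adjusted p was 0.0252 to 0.408 and 0.0465 to 0.689. The gene had 4 probes, and the 3 dimmer ones had estimates of −0.09 (SE 0.08), −0.18 (SE 0.07) and 0.01 (SE 0.17) in C10 compared to REF, so the size of the change rested on the brightest probe. Sdhaf1, a factor of complex II, had an estimate of 0.15 (SE 0.16, adjusted p 0.927) in CF and of 0.02 (SE 0.15) in C10, where rat 1 was at 12.44 and rat 2 at 11.35, the highest and the lowest of all rats. In all, 17 of the 83 genes had several probes, and for 3 of them probes differed in the sign of the estimate in C10 compared to REF, as for 3 in CF and 3 in I.

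Genes that work beside the chain were taken from lists, whose counts in C10 compared to REF stand beside 0.94 % called, and 8.3 % lower and 8.82 % higher at an unadjusted p below 0.05, over all genes. Of 28 further assembly factors, 24 were tested, and in C10 compared to REF limma called 0, with 3 lower and 0 higher at an unadjusted p below 0.05 and a median of −0.03. Surf1, which is needed to assemble complex IV, had the lowest p among them, with signals of 11.84, 11.96, 11.84 and 12.07 in REF and 11.75, 11.40, 11.68 and 11.71 in C10 rats 1 to 4. The groups did not overlap, with C10 lower, as held for 1 gene of the list and for 2.01 % of all genes. The estimate was −0.32 (SE 0.07, adjusted p 0.0508), followed by Cox18, which inserts a complex IV subunit into the membrane, with −0.21 (SE 0.06, adjusted p 0.111). In CF and I compared to REF, 3 of the 24 were lower and 0 higher in each at an unadjusted p below 0.05. Of all genes, 3.29 % and 2.86 % were lower. In each diet 1 gene of the list lay below all REF rats, compared with 0.794 % and 0.985 % of all genes. Of 12 genes of cytochrome c and of mitochondrial carriers and channels, 11 were tested. Of these, 0 were called, and 2 were lower and 0 higher at an unadjusted p below 0.05, with a median of −0.02. The adenine nucleotide carrier Slc25a4 had an estimate of −0.37 (SE 0.14, adjusted p 0.208), and the outer membrane channel Vdac3 of −0.18 (SE 0.06, adjusted p 0.186).

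The citric acid cycle feeds the chain with electrons. Of its 17 genes, 16 were tested, and in C10 0 were called by limma, 4 were lower and 1 higher at an unadjusted p below 0.05, with a median of −0.11. The gene that was higher was Cs, citrate synthase, the first enzyme of the cycle. Signals of Cs were 12.74, 12.69, 12.89 and 12.51 in REF and 13.01, 13.17, 13.23 and 13.08 in C10 rats 1 to 4. The groups did not overlap, with C10 higher. The estimate was 0.44 (SE 0.10, adjusted p 0.0572), and Idh3g, a regulatory subunit of isocitrate dehydrogenase, had −0.23 (SE 0.06, adjusted p 0.0741). Over the list, C10 and REF rats did not overlap for 1 gene that was higher in C10 and for 2 that were lower, Idh3g among them. This held for 2.62 % and 2.01 % of all genes. In CF and I compared to REF, the highest estimates of the list were 0.31 and 0.21. At an unadjusted p below 0.05, 1 gene was higher in CF and 0 in I (3.05 % and 2.8 % of all genes), with 0 lower in each. Of the 16 estimates, 10 in CF and 11 in I were below 0, compared with 45.6 % and 48.2 % of all genes. The 13 genes of fatty acid oxidation had a median of −0.08, with 0 called, 1 lower and 0 higher at an unadjusted p below 0.05, the lower one being Echs1 (−0.17, SE 0.07, adjusted p 0.251). Slc25a20, the carnitine carrier, had an estimate of 0.15 (SE 0.09, adjusted p 0.412). The median of these 13 genes was −0.05 in CF compared to REF and 0.06 in I compared to REF. In I, 11 of the 13 estimates were above 0 and 2 below, where 48.2 % of all genes were below 0. At an unadjusted p below 0.05, 1 was higher and 0 lower (2.8 % and 2.86 % of all genes).

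Ribosomal protein genes were set beside them as further nuclear genes, some of a mitochondrial structure and some of the cytosol. The 66 genes of the mitochondrial ribosome had a median of −0.11 in C10, −0.07 in CF and −0.07 in I. In C10, 14 were lower and 1 higher at an unadjusted p below 0.05 and 0 were called by limma, compared with 8.3 %, 8.82 % and 0.94 % of all genes. Mrpl12 was at −0.26 (SE 0.08, adjusted p 0.106) and Mrps31 at −0.24 (SE 0.07, adjusted p 0.123). The 38 tested genes of the cytosolic ribosome had medians of 0.08, 0.025 and 0.08, and in C10 6 were higher, 0 lower and 0 called, with Rps12 at 0.30 (SE 0.08, adjusted p 0.0811). Of 12 regulators of mitochondrial biogenesis, 0 were called, 1 was higher and 0 lower in C10, with a median of 0.03. Yy1, a transcription factor that binds promoters of such genes, had an estimate of 0.19 (SE 0.08, adjusted p 0.228), and the mitochondrial transcription factor Tfb2m of −0.15 (SE 0.08, adjusted p 0.372).

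Among the remaining marker lists, the median in C10 compared to REF was −0.80 for smooth muscle (9 tested, 6 lower at an unadjusted p below 0.05, with Des at −0.94, SE 0.34, adjusted p 0.186) and −0.75 for adipocytes (6 of 9 tested, 3 lower, with Fabp4 at −1.06, SE 0.27, adjusted p 0.0784, and Cfd at −1.08, SE 0.38, adjusted p 0.175). Among C10 rats the smooth muscle score was low in rat 1 alone, and the others lay within the REF range. The median was 0.06 for colon epithelium, where 1 gene was higher at an unadjusted p below 0.05, the water channel Aqp8 (0.88, SE 0.41, adjusted p 0.290), followed by the cadherin Cdh1 (0.22, SE 0.13, adjusted p 0.428). It was 0.56 for B cells (5 of 7 tested, lowest p for Pax5 at 0.15, adjusted p 0.359, and Fcer2 at 0.21, adjusted p 0.723) and 0.19 for T cells (7 tested, Cd4 at −0.20, adjusted p 0.374, and Cd3e at 0.28, adjusted p 0.817). It was −0.15 for proliferation (6 of 8 tested, Birc5 at −0.34, adjusted p 0.415, and Ccnb1 at −0.22, adjusted p 0.456), and in these 4 lists 0 others had an unadjusted p below 0.05. Limma called 0 genes of any of the marker lists. In CF and I compared to REF the medians were −0.39 and −0.24 for proliferation, where all 6 estimates were below 0 in each and 4 and 1 were lower at an unadjusted p below 0.05, compared with 3.29 % and 2.86 % of all genes. The medians were −0.28 and −0.34 for smooth muscle (9 of 9 below 0 in each, compared with 45.6 % and 48.2 % of all genes). They were −0.23 and −0.22 for adipocytes, −0.04 and 0.01 for striated muscle, and −0.01 and 0.08 for colon epithelium. They were 0.42 and 0.44 for B cells and 0.14 and 0.19 for T cells. Among I rats the smooth muscle score was −0.49 in rat 1 and 0.0084 to 0.29 in the others, compared with 0.02 to 0.51 in the REF rats. In the colon epithelium list, 1 gene was higher at an unadjusted p below 0.05 in CF and 1 in I (3.05 % and 2.8 % of all genes). The highest estimates of that list were 1.16 in CF and 1.20 in I. The part of these lists in the results for the respiratory chain genes was not tested. The adipocyte score was −0.66, −0.36, −0.48 and −0.16 in C10 rats 1 to 4 and 0.30, −0.32, 0.70 and 0.26 in the REF rats. REF rat 2 lay within the C10 range and the other REF rats above it.

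Nuclear genes of the chain share factors that act at their promoters. Promoters, from 250 bases before to 50 after the start of the gene, were taken from RefSeq (build GRCr8) for 73 of the 83 genes, and 4 motifs were searched on both strands: GCGCATGCG for NRF1, CCGGAAG for the ETS family with GABPA, AAGGTCA for ERRA and AAGATGGCG for YY1. None of the 4 contains another. NRF1 letters were found in 8 of the 73 promoters (11 %), compared with 1.66 % of 27457 promoters of all genes in the same table. The ETS letters were found in 24 (32.9 %, compared with 9.22 %), the ERRA letters in 9 (12.3 %, compared with 4.37 %) and the YY1 letters in 9 (12.3 %, compared with 1.93 %). At least 1 of the 4 was present in 38 promoters (52.1 %), compared with 16 % of all promoters. NRF1 letters were in 4 of 14 promoters of complex V and in 1 of 28 of complex I, and YY1 letters in 6 of 28 of complex I and in 1 of 14 of complex V. Such letters are descriptions of the sequence and do not show binding.

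The promoters of 4 genes with low p-values in C10 compared to REF are printed 5′ to 3′ to show where these letters lie, with the letters in capitals. Atp5po (chr11:44657434-44657733, minus strand) has the NRF1 letters on both strands, from base 192 to base 201, as they form a near palindrome, and so has Ndufaf4 (chr5:43401545-43401844, plus strand) from base 93 to base 102. Ndufb8 (chr1:253362887-253363186, minus strand) has the YY1 letters from base 272 to base 280, after the start of the gene. Uqcrc2 (chr1:184598990-184599289, plus strand) has the ETS letters in the reverse direction, from base 134 to base 140 and from base 223 to base 229. Neither Cox6a2 nor Ndufa4 held any of the 4.
Atp5po: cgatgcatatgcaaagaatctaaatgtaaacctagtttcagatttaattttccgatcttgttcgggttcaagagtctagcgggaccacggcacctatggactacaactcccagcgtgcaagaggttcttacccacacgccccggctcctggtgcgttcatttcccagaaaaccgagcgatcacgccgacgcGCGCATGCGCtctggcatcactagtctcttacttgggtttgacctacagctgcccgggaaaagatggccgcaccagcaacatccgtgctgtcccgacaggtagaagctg
Ndufaf4: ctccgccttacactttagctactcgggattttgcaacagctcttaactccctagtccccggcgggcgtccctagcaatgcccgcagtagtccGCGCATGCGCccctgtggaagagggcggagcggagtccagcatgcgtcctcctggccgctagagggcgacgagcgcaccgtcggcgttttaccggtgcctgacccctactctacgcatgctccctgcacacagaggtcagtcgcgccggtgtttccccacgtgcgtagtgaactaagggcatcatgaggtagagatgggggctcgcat
Ndufb8: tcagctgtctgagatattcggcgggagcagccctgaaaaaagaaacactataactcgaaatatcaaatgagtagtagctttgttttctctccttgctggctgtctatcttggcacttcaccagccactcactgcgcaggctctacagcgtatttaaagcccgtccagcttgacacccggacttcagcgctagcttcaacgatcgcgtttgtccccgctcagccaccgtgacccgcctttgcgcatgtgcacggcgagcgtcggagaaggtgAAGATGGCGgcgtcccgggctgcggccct
Uqcrc2: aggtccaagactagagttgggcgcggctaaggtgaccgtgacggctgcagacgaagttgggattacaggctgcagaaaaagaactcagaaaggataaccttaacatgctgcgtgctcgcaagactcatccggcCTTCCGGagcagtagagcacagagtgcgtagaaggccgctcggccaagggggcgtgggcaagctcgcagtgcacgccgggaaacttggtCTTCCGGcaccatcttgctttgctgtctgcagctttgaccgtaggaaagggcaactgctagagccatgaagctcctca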

How the data were processed

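The authors deposited the scanner output of 8 arrays as intensity, the median brightness of each spot and of its background in Cy3 and in Cy5, made with Agilent Feature Extraction 10.7.3.1. A deposited table of normalized values was not used, since nothing ties its 8 columns to the labels. Signals were corrected with normexp (offset 50), then normalized within each array with a spatial loess (span 0.4, degree 1) and a loess on intensity (span 0.3), and scaled between arrays with Aquantile, without control and outlier spots (604 to 896 per array). No spot was saturated, and the median signal was 109.5 to 169 in Cy3 and 302.5 to 426.5 in Cy5. Probes well above background in 4 or more of the 16 rats were kept (22539 of 30367), and the brightest probe stood for its gene. Probes were matched to current rat symbols by accession, which succeeded for 17935 of 19109 probes with an mRNA accession.

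The 16 signals were fitted in R 4.3.3 with limma 3.58.1 and statmod 1.5.0 over 19901 genes, with terms for diet and dye and with arrays as blocks (correlation 0.42), and p-values were adjusted by Benjamini and Hochberg over all genes in each comparison. Exact permutation tests were two-sided over 4 rats against 4. Rank product used 100 permutations. Neither of these tests took account of the array or the dye. The steps were tested on simulated data. The replicates were numbered in the order of the arrays. The array titles in the labels carry 16 different sample codes, 1 for each dye of each array, which were read as 16 rats, and the 4 rats per diet rest on this reading. The study's methods also speak of dye swaps for the RNA of every sample, which these labels do not show.

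Named genes were the core subunits of complexes I, II, III and V with Atp5if1, the isoforms of complex IV with Ndufa4, every member called, the 2 members with the lowest p in each direction against REF and in C10 compared to CF, and the highest and lowest estimate of each complex in C10. From every other list the 2 genes with the lowest p were named where 0 were called. Not every gene that these rules take in is printed. Per-rat values of Surf1 and Cs, the mention of Ndufs3 and Ndufs8 by p, and the promoters shown were chosen after values were seen. The members and the lists (cytochrome c and carriers, further assembly factors, citric acid cycle, regulators, fatty acid oxidation, mitochondrial and cytosolic ribosome, colon epithelium, smooth and striated muscle, adipocytes, B cells, T cells, proliferation) were chosen with earlier results of these data known.

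The degree of the spatial loess, the estimate of the within-array correlation and the rule for well above background are not given by the study's methods. They were settled after the results of 3 versions had been seen, the members' results included. The version kept was the one whose counts over all genes were nearest to those of an earlier analysis of these data. The versions not kept are among the alternatives tried. The others were no offset, the scanner software's processed signals, no spatial loess, no scaling or quantile normalization between arrays, no dye term, no array block, log-ratios within arrays, 2 other filters, the mean of all probes, the set of arrays as a term, the arrays of 1 set only, members without assembly factors and the pseudogene, rank product, and each rat left out.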

Additional observations from a re-analysis of the deposited data

Results flagged for a closer look

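In 232 groups of 4 rats, 20 had 1 rat that lay far from the other 3, judged by its gap to the nearest rat relative to the range of the group. Chance alone marks about 1 in 20 groups, and many of these groups share genes and rats, so they are not independent.

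REF rat 3 was low in 5 of them. Its score was −0.02 over all respiratory chain genes, where the other REF rats were at 0.07, −0.01 for complex I, −0.02 for complex IV and −0.07 for cytochrome c and carriers, and its Atp5f1a signal was 15.92, below 16.23 to 16.27. Its Atp5if1 signal, 14.60, was high. CF rat 3 had scores of −0.16 for complex III and −0.16 for complex V, and low signals of Sdha (13.39) and Atp5f1a (15.86). C10 rat 1 had the smooth muscle score of −2.14 and a Ndufv1 signal of 13.76, below 13.89 to 13.91.

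The others were single values. I rat 2 had a complex IV score of 0.04 and I rat 3 a mitochondrial ribosome score of −0.12. C10 rat 3 was low in Sdhb (12.61) and high in Sdhd (14.07). I rat 1 was high in Cox4i2 (10.36), REF rat 1 low in Cox6a2 (8.74), CF rat 2 high in Atp5po (15.04) and C10 rat 4 high in Ndufa1 (15.25). The cause was not tested.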

How the results depend on the processing

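The count of respiratory chain genes called in C10 compared to REF, 0 with limma, was 1 with quantile normalization (Atp5po), 1 with another estimate of the within-array correlation (Atp5po) and 1 by rank product (Cox6a2). Leaving out each rat in turn gave 0 to 3. It was 2 without C10 rat 1 (Cox6a2 and Ndufaf4) and 3 without REF rat 3 (Atp5po, Cox6b2 and Ndufaf4), where 136 and 683 of all 19901 genes were called in place of 187. Without REF rat 2 the count over all genes was 35, the lowest without a single rat. In C10 compared to CF it was 0 to 1, with Ndufaf4 called without C10 rat 1. In the other 4 comparisons it was 0 under every setting run. Whether Atp5po was called thus depended on choices made with results in view, and the cause of these differences was not tested. The other correlation estimate, degree 2 of the spatial loess (0 members called, 178 genes in all), the arrays of 1 set and the smaller member list were chosen after seeing the data.

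The median of the 83 genes stayed below 0 under all settings, from −0.13 to −0.05 in C10, −0.12 to −0.07 in CF and −0.09 to −0.04 in I (−0.05 without C10 rat 2 and −0.06 without REF rat 2 in C10), as did those of complexes I and V. The median of complex III ranged from −0.05 to 0.01 in C10 and that of complex IV from −0.06 to 0.04. Of 1535 values of 48 results for named genes, 1527 kept their side of the threshold, 8 newly passed it, and 45 changed sign within their SE.

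In the paired fit on log-ratios within arrays, the median of the 83 genes in C10 compared to REF was −0.13, with 67 below 0, 20 lower at an unadjusted p below 0.05, and 0 called of all genes by limma. That count, 17 with all rats and terms, was 4 with no array block, 6 with no scaling between arrays, 8 with no dye term and 7 to 25 without a rat. In CF it was 9, and 0 with no array block. Fits without a rat kept the correlation estimated from 16 rats. With 4 rats per diet, estimates below about 2 SE cannot be told from 0, and dim probes such as that of Cox8b are limited by signal over background.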
